A study of Mus musculus with 4 samples.

Results

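The genes described here are 50 genes of mitosis and of the G2 to M transition, a list covering mitotic entry, spindle assembly, the spindle checkpoint, the kinetochore, cytokinesis and chromosome structure. A member was measured where the array held a probe set annotated with its symbol and no other, and where a gene had several, the brightest on average stood for it. Of the 50 genes, 49 had such a probe set, among 19938 genes measured in this way, and 48 entered the test, among 13956 genes. Ccnb1 is not analysed here. Ttk was measured, but its mean log2 intensity of 6.11 lay under the filter on dim genes at 6.29, and the dimmest members just inside that filter were Cdc25c at 6.46 and Spc25 at 6.49.

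RNA of sorted mouse regulatory T (Treg) cells was measured on 4 Affymetrix arrays, 2 for each of 2 genotypes. The wild-type (WT) group was Cyld+/+ Foxp3-yfp-cre and the CYLD knockout (KO) group was Cyld fl/fl Foxp3-yfp-cre, both on C57Bl6 and aged 6 to 8 weeks. Both groups thus carried the Foxp3-yfp-cre allele, which drives Cre and a yellow fluorescent protein in cells that express Foxp3, so the deletion is limited to those cells and their progeny, and YFP+ cells were sorted. The labels name spleen with lymph nodes in one field and spleen in another. They do not say whether the 2 samples of a genotype came from separate mice. The 2 KO samples differed in sex-linked transcripts, as given below. The p-values rest on a spread between samples of a genotype that is pooled over all genes and may be technical. They do not measure each gene's own spread.

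Cells that leave G2 activate the kinase CDK1 through its A- and B-type cyclins, condense their chromosomes, build a spindle and attach each kinetochore to microtubules. The spindle checkpoint holds back the anaphase-promoting complex (APC/C) until all kinetochores are attached, and its activation then destroys securin and the cyclins and allows the chromosomes to part and the cell to cleave. Transcripts of this machinery are made mainly in G2 and M, so in a population of T cells they follow the share of dividing cells. In bulk RNA, more dividing cells and more of these transcripts per cell cannot be told apart.

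The arrays shared a scale, with median intensities from 99.0 to 105. Cyld, the targeted gene, read 524 and 502 on the WT arrays and 284 and 218 on the KO arrays, and the labels do not say whether its probe set lies in the deleted stretch. The defining markers of the labelled cells, Foxp3, Cd4, Il2ra and Ctla4, read between 1250.1 and 2579 on every array, and 0 of 9 tested Treg and CD4 T cell markers passed the test. Foxp3 read 2016 and 1881 in WT and 1697 and 1553 in KO, and Il2ra read 2579 and 2499 in WT and 1914 and 1810 in KO. Both were thus lower on both KO arrays without passing, whereas Cd4 and Ctla4 overlapped between groups. KO replicate 2 stood apart from the other 3 arrays in sex-linked transcripts. Kdm5d, encoded on the Y chromosome, read 271 and 275 in WT, 268 in KO replicate 1 and 127 in KO replicate 2, and Eif2s3y, also Y-linked, read 253, 219, 221 and 98.9 in the same order. Xist, the RNA of the inactive X chromosome, read 1306, 1403, 1630.2 and 2321. Results are therefore also given for each KO array on its own.

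Mitosis genes were higher in CYLD KO than in WT Treg cells in each of 9 roles, from mitotic entry to chromosome structure. Of the 48 tested, 43 were higher, where 4.79% of all tested genes were, and 1 was lower, where 3.5% were (limma, adjusted p under 0.05). The median log2 fold change of the 48 genes was 0.75, or 1.69-fold, against -0.02 over all tested genes. The largest changes were those of Mki67, the Ki-67 protein that coats mitotic chromosomes, and of Ccnb2, cyclin B2, each at 1.13. Only 4 members, these and Ccna2 and Kif11, reached 2-fold. Bub3, Incenp, Ndc80 and Smc2 did not pass, and Smc4 was the gene that fell. Ttk, the checkpoint kinase MPS1, tested only with the filter removed, had a log2 fold change of 0.62 (limma adjusted p = 0.00507).

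Both KO arrays lay above both WT arrays in 45 of the 48 genes, where 22.5% of all tested genes did so, below them in Smc4 alone, where 26.2% did, and the groups overlapped in Bub3 and Incenp. The WT mean of Cdc25c and of Spc25 was itself under the filter, so these passed it through the KO arrays; of the other 46 members, 41 were higher. The sum of the intensities of the 49 measured members was 11359 and 10919 on the WT arrays, 14319 on KO replicate 1 and 21791 on KO replicate 2.

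These calls rest on a spread pooled over all genes, which gave each log2 fold change the same standard error of 0.17 and a 95% interval of 0.33 to either side. The members' own residual SD had a median of 0.33, against 0.147 over all genes, and exceeded the pooled value in 44 of 48 (91.7%), against 39.1% of all genes. Without pooling, 0 members and 0 genes passed limma's test, where 0.0% of all genes were higher. At an unadjusted p under 0.05 there were 3 members (Melk, Mad2l1 and Mki67), all higher, where 6.03% of all genes were higher, and 1813 genes in either direction. With 1 WT array left out, 27 members were higher without WT replicate 1, where 2.07% of all genes were, and 22 without WT replicate 2, where 1.82% were.

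**Figure D1:**
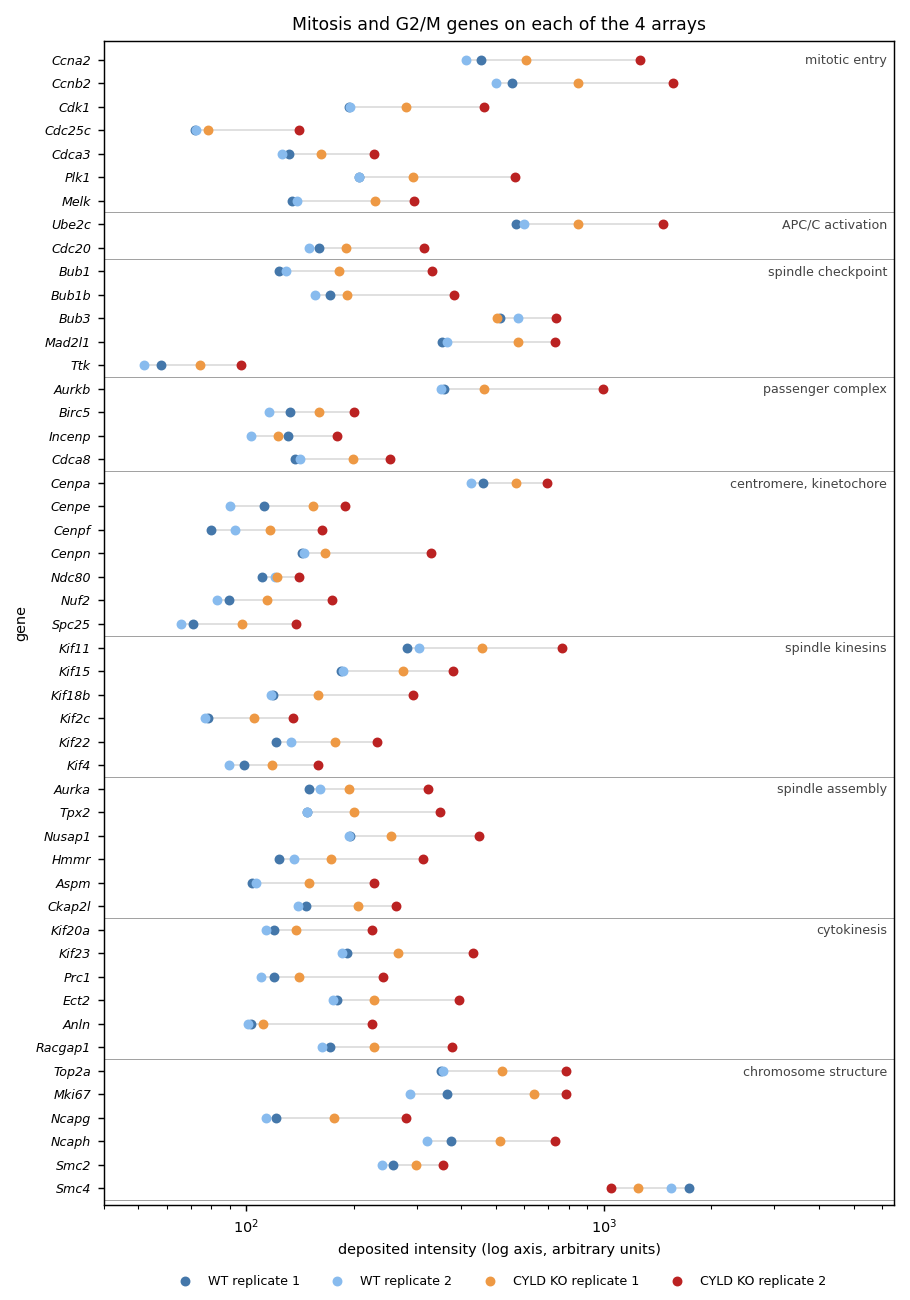
Deposited intensity (log axis, arbitrary units) of the 49 measured genes on each of the 4 arrays, grouped by role, with 1 point per array. KO replicate 2 is the highest point of every gene except Smc4, and the WT points lie close together.

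Promoters of cell cycle genes that peak in G2 and M are known for a pair of elements, the CHR (cell cycle genes homology region), bound by the DREAM and MuvB complexes, and the CCAAT box, bound by NF-Y. RefSeq promoter windows (build GRCm38.p6, 250 bases before to 50 after the start) were found for 43 of the 50 members, and none was used for Smc4, Cdc25c, Tpx2, Incenp, Ccna2, Aurkb and Kif20a. The CHR was searched as TTTGAA or TTCGAA and the other element as CCAAT, on both strands, and matches were allowed to overlap. A CHR match lay in the windows of 35 of 43 members (81.4%), against 16.6% of 11070 tested genes and 21.7% of all 27025 genes with a window. CCAAT lay in 33 of 43 (76.7%), against 41.5% and 41.1%. By window, 73.9% of the 46 member windows held both, against 5.72% of the windows of tested genes. The members were listed for their role in mitosis, and a match is a stretch of letters, not a measured site.

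The 150 bases upstream of the start are shown for 6 members whose values are described next, because they show how these letters are placed where present. Within these 150 bases a CHR match was found in 16 of the 43 members and CCAAT in 32, whereas 5 of the 6 printed stretches hold a CHR. The other CHR matches lie elsewhere in the windows. The share over all genes was not counted for this shorter stretch. Capitals mark the 6 letters of a CHR match and the 5 of a CCAAT match, read on either strand. Cdk1 (chr10:69352913-69353062, minus strand), Ube2c (chr2:164769779-164769928, plus strand) and Cdc20 (chr4:118437344-118437493, minus strand) hold 2 CCAAT each, with 2 CHR matches in Cdk1 and 1 in each of the others. Kif11 (chr19:37376232-37376381, plus strand) and Mki67 (chr7:135716380-135716529, minus strand) hold 1 CCAAT each, with 1 CHR match in Kif11 and 2 in Mki67. Ccnb2 (chr9:70421555-70421704, minus strand) shows 3 CCAAT, and its CHR matches lie outside the printed bases.
Cdk1: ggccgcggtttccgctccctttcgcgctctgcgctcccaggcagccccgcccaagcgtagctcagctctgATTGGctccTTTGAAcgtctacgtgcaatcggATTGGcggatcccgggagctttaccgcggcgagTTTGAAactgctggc
Ube2c: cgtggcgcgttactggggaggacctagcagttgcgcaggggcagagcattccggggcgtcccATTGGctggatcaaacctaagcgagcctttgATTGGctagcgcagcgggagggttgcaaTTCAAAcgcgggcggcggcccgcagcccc
Cdc20: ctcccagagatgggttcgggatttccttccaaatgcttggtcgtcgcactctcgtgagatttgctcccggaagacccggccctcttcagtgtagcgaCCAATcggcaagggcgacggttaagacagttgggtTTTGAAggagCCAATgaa
Kif11: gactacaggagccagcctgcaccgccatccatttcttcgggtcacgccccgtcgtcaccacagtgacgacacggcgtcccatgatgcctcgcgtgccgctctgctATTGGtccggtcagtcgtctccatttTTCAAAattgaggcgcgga
Mki67: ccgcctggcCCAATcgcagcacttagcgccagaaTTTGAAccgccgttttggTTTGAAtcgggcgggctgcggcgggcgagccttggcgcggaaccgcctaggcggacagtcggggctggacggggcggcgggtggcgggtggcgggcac
Ccnb2: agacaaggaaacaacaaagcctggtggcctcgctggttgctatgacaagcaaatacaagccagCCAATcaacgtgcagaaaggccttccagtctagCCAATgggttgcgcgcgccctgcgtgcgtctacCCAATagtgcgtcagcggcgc

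The members' changes are given here by whether the window held a CHR match. The median log2 fold change was 0.74 over the 34 tested members with a match and 0.79 over the 7 without. The median difference between the KO arrays, replicate 2 minus replicate 1, was 0.68 with a match and 0.36 without. These medians are descriptions of small groups, and no test was made of their difference.

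Mitotic entry genes were higher as a group, with 7 of 7 tested genes past the threshold and a median log2 fold change of 0.93. For this and every role below, the share of all tested genes called higher was 4.79%. The 7 tested genes include Cdc25c, which passed the filter through the KO arrays. Ccnb2, a cyclin that activates CDK1, read 554 and 500.1 in WT and 849 and 1562 in KO (means 527 ± 37.8 and 1206 ± 504, SD, n = 2 each; log2 fold change 1.13 ± 0.17, SE; limma adjusted p = 3.82e-09). Both KO arrays were above both WT arrays, and KO replicate 2 was far above replicate 1. Ccna2, cyclin A2, which acts in S phase and G2, read 455 and 413 in WT and 607 and 1264 in KO (log2 fold change 1.01, limma adjusted p = 2.23e-07). Plk1, the kinase that drives entry into mitosis and centrosome maturation, read 207 on both WT arrays and 294 and 564 in KO (0.97, limma adjusted p = 8.00e-07). For Ccna2 and Plk1 the groups did not overlap, and the gap between the KO arrays was wider than that between WT and KO replicate 1. Melk, a kinase of dividing cells, had a log2 fold change of 0.93, Cdk1 of 0.88, Cdca3, a mitotic entry factor, of 0.57 and Cdc25c, the phosphatase that activates CDK1, of 0.53.

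The genes of APC/C activation rose too. Ube2c, the E2 enzyme that works with the APC/C, read 568 and 597 in WT and 846 and 1467 in KO (log2 fold change 0.93, limma adjusted p = 2.50e-06). Cdc20, its activator in anaphase, read 160.1 and 150.3 in WT and 190.0 and 314 in KO (0.65, limma adjusted p = 0.00298). In both genes KO replicate 1 lay just outside or moderately above the WT arrays and KO replicate 2 well above.

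Of 4 tested spindle checkpoint genes, 3 were higher. Bub1, a checkpoint kinase at the kinetochore, read 124 and 129 in WT and 182 and 332 in KO (log2 fold change 0.95, limma adjusted p = 1.49e-06). Mad2l1, which binds and inhibits CDC20, read 354 and 366 in WT and 576 and 729.7 in KO (0.85, limma adjusted p = 3.06e-05). Mad2l1 had its KO arrays closer together than Bub1, and neither gene overlapped between groups. Bub1b, the BUBR1 protein, read 171 and 156 in WT and 191 and 383 in KO (0.72, limma adjusted p = 6.97e-04), with nearly all of the shift on KO replicate 2. Bub3, their binding partner, read 514 and 576 in WT and 502 and 735 in KO (0.16, limma adjusted p = 0.652). KO replicate 1 lay below both WT arrays for Bub3, so that without KO replicate 2 its log2 fold change was -0.12.

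In the chromosomal passenger complex, which corrects faulty attachments and directs cleavage, 3 of 4 genes were higher. Aurkb, its kinase, read 358 and 351 in WT and 464 and 994 in KO (log2 fold change 0.94, limma adjusted p = 2.44e-06). Cdca8, the borealin subunit, read 137 and 142 in WT and 199 and 252 in KO (0.68, limma adjusted p = 0.00158). Both genes were separated between groups, Aurkb mainly through KO replicate 2. Birc5, the survivin subunit, read 133 and 116 in WT and 159.7 and 200.4 in KO (0.52, limma adjusted p = 0.0283, and 0.0512 with an intensity trend in the variance). Incenp, the scaffold of the complex, read 131 and 104 in WT and 123 and 179.8 in KO (0.35, limma adjusted p = 0.219). Its KO replicate 1 lay between the WT arrays.

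Centromere and kinetochore genes were higher in 6 of 7 cases, with a median log2 fold change of 0.70. The 6 include Spc25, which passed the filter through the KO arrays. Spc25, a subunit of the NDC80 complex that grips microtubules, read 70.9 and 65.8 in WT and 97.6 and 138 in KO (0.76, limma adjusted p = 2.99e-04). Cenpe, a kinesin of the kinetochore, read 112 and 90.0 in WT and 154 and 189 in KO (0.76, limma adjusted p = 3.02e-04). Nuf2, also of the NDC80 complex, read 89.9 and 83.0 in WT and 115 and 174 in KO (0.70, limma adjusted p = 0.00104). The groups stayed apart in these genes, and their intensities are near the lower end of the scale, where background understates a fold. Ndc80 itself read 111 and 120.2 in WT and 122 and 141 in KO (0.18, limma adjusted p = 0.588). Cenpn, which binds the centromeric nucleosome, had a log2 fold change of 0.70, Cenpf, a large kinetochore protein, of 0.67 and Cenpa, the centromeric histone, of 0.50.

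All 6 tested spindle kinesins were higher. Kif11, the motor that pushes spindle poles apart, read 283 and 304 in WT and 457 and 765 in KO (log2 fold change 1.01, limma adjusted p = 2.49e-07). Kif18b, which shortens astral microtubules, read 119 and 117 in WT and 159 and 294 in KO (0.87, limma adjusted p = 1.68e-05). Kif15, a motor that backs up Kif11, read 184 and 186 in WT and 275 and 380.1 in KO (0.80, limma adjusted p = 9.63e-05). No WT value of these motors reached a KO value. Kif22, a motor on chromosome arms, had a log2 fold change of 0.67, Kif2c, which removes tubulin at centromeres, of 0.61 and Kif4, a chromosome-bound kinesin, of 0.54.

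The 6 spindle assembly genes were all higher and close to each other, with log2 fold changes from 0.68 to 0.83. Hmmr, a microtubule-associated protein, read 124 and 136 in WT and 173 and 312 in KO (0.83, limma adjusted p = 4.51e-05). Tpx2, which activates Aurora A on the spindle, read 148 on both WT arrays and 201 and 348 in KO (0.83, limma adjusted p = 4.58e-05). Aspm, a protein of the spindle poles, read 104 and 107 in WT and 149.8 and 228 in KO (0.80, limma adjusted p = 9.08e-05). The WT arrays were nearly equal, and the KO arrays stood above them at different heights. Nusap1, which bundles spindle microtubules, had a log2 fold change of 0.79, Ckap2l, a spindle pole protein, of 0.69 and Aurka, the centrosomal kinase Aurora A, of 0.68.

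Cytokinesis genes were higher in 6 of 6 cases. Kif23, the kinesin of the centralspindlin complex, read 191 and 186 in WT and 266 and 432 in KO (log2 fold change 0.84, limma adjusted p = 3.50e-05). Racgap1, its partner, read 172 and 163 in WT and 229 and 376 in KO (0.80, limma adjusted p = 9.30e-05). Ect2, the exchange factor that activates RhoA at the cleavage plane, read 179.6 and 175 in WT and 228 and 394 in KO (0.75, limma adjusted p = 3.32e-04). The complete separation of groups again came with an uneven pair of KO arrays. Prc1, which bundles midzone microtubules, had a log2 fold change of 0.68, Anln, the anillin of the contractile ring, of 0.62 and Kif20a, a motor that brings the passenger complex to the midzone, of 0.59.

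Chromosome structure held the member that fell beside 4 that rose. Mki67 read 364 and 287 in WT and 638 and 787 in KO (log2 fold change 1.13, limma adjusted p = 3.62e-09). Ncapg, a condensin I subunit, read 121 and 114 in WT and 177 and 279.8 in KO (0.91, limma adjusted p = 4.35e-06). Top2a, the topoisomerase that untangles sister DNA, read 350.0 and 356 in WT and 518 and 785 in KO (0.85, limma adjusted p = 2.71e-05). Mki67 had the most even KO arrays of the 3. With the probe sets of a gene averaged, Top2a had a log2 fold change of 0.43 and did not pass (limma adjusted p = 0.101). Ncaph, another condensin I subunit, had a log2 fold change of 0.82.

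Neither of the SMC subunits that condensin I and II share was called higher. Smc2 read 258 and 241 in WT and 298 and 356 in KO (log2 fold change 0.38, limma adjusted p = 0.164). Smc4 read 1731 and 1542 in WT and 1249.5 and 1046 in KO, a log2 fold change of -0.52 (limma adjusted p = 0.0325). Both KO arrays of Smc4 were below both WT arrays, KO replicate 2 the lower. Smc4 was past the threshold in KO replicate 2 alone (limma adjusted p = 0.00767) and not in KO replicate 1 alone (0.221), nor with either WT array left out.

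**Figure D2:**
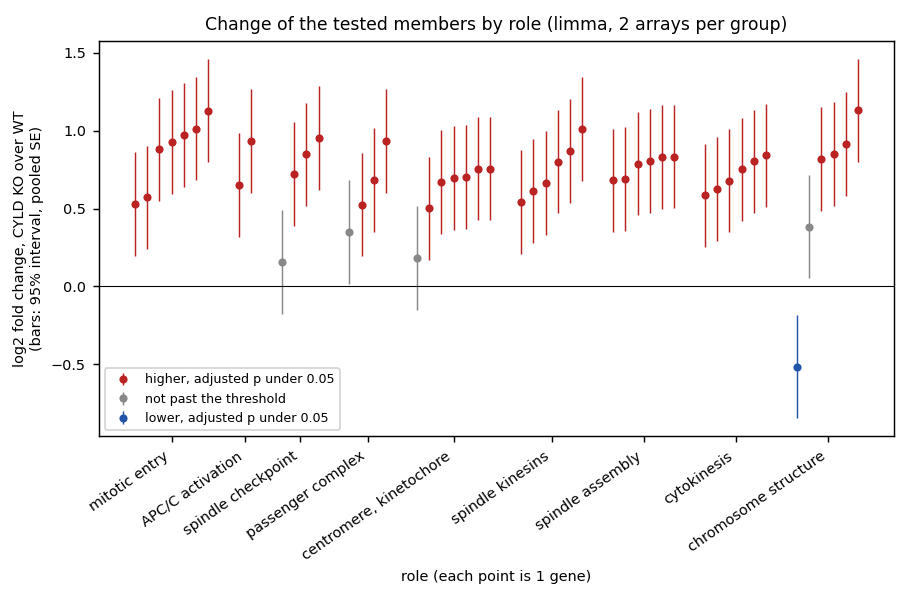
Log2 fold change of CYLD KO over WT for each of the 48 tested genes, ordered within role, with 95% intervals from the pooled standard error and 2 arrays per group. Every role has most of its points above 0, and Smc4 at -0.52 is the gene below.

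The KO arrays differed from each other more in these genes than the WT arrays did. KO replicate 2 was above KO replicate 1 in 47 of the 48 genes, where 46.2% of all tested genes were, and by 1.5-fold or more in 27, where 1.39% were. The median difference, replicate 2 minus replicate 1, was 0.63 on the log2 scale, or 1.55-fold, against -0.03 over all tested genes. Between the WT arrays the median absolute difference of the members was 0.08 and the largest 0.34, and 0 members differed by 1.5-fold, where 0.15% of all genes were higher and 0.0502% lower on WT replicate 2 by that much. Each side of this comparison is 1 array, so the difference has no replicate and was given no test.

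Of the 100 tested genes with the largest excess of KO replicate 2 over replicate 1, 23 were members. Aurkb had the largest excess of all 13956 genes, 1.10 on the log2 scale. In the other direction the Y-linked Eif2s3y differed by more, at -1.15. Ccna2 had rank 3 with 1.06, and Anln had rank 5 with 1.01. Anln read 103 and 102 in WT, 111 in KO replicate 1 and 225 in KO replicate 2, so that nearly the whole of its change was on the latter. The members with the lowest differences were Smc4 at -0.26, Ndc80 at 0.21 and Smc2 at 0.25, which were also among those that fell or did not pass.

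Set against WT on its own, KO replicate 1 gave 11 higher members, where 3.52% of all tested genes were, and 0 lower, where 2.76% were. KO replicate 2 on its own gave 45 higher, where 6.58% were, and 1 lower, where 5.5% were. The median shift was 0.43 in replicate 1, or 1.35-fold, and 1.07 in replicate 2, or 2.10-fold; both share the WT arrays, and the lone KO array is assumed to vary as the WT arrays do. The 11 were Ccnb2, Melk, Ube2c, Mad2l1, Cenpe, Kif11, Kif15, Top2a, Mki67, Ncapg and Ncaph. This count was 7 with quantile normalization, where 3.03% of all genes were higher, and 17 with 16 added before the log, where 4.14% were, both chosen after seeing the data. In 9 genes (Ccnb2, Kif11, Kif15, Mad2l1, Melk, Mki67, Ncapg, Top2a and Ube2c) the call was kept with each of the 4 arrays left out in turn.

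The share of the replicate 2 shift that was also seen in replicate 1 had a median of 41.0% and differed between genes. It was 76.4% for Mki67, 67.9% for Cenpe, 67.7% for Melk and 66.5% for Mad2l1. At the low end it was 10.7% for Anln, 11.9% for Cdc25c, 12.6% for Incenp, 17.1% for Cenpn and 18.2% for Bub1b, and in Bub3 it was -27.1%, since KO replicate 1 lay on the other side of the WT mean. KO replicate 2 is also the array that stood apart in Xist and the Y-linked genes above, and the part of that difference in these values was not tested.

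**Figure D3:**
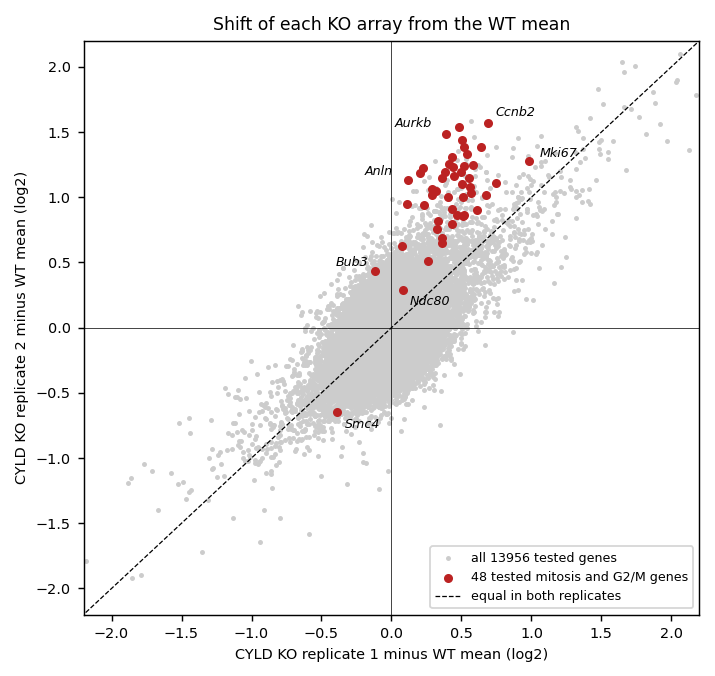
Shift of KO replicate 1 (x axis) and KO replicate 2 (y axis) from the WT mean on the log2 scale for all 13956 tested genes (grey) and the 48 tested mitosis genes (red), with the line of equal shifts; 18 genes lie outside the axes. Nearly all red points lie above the line, Mki67 nearer to it than Aurkb or Anln.

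Some mitosis genes outside the list of 50 were also higher. Over 5 further lists of 122 genes, 107 were tested, 39 were higher, where 4.79% of all tested genes were, and 0 lower, where 3.5% were, with a median log2 fold change of 0.38. Among the higher genes, the WT mean intensities of Ckap2 (72.6), Cenpk (71.7), Iqgap3 (69.1) and Parpbp (74.0) were under the filter. These genes passed it through the KO arrays. KO replicate 1 alone gave 7 higher genes, where 3.52% of all genes were, and KO replicate 2 alone 52, where 6.58% were. Further cytokinesis and condensin genes had the largest share, 12 of 18, with Arhgap11a, a RhoA regulator, at 0.89, Cdkn3, a CDK phosphatase, at 0.77 and Cit, the citron kinase, at 0.76. Among these, the condensin subunits Ncapd2 and Ncapg2 rose by 0.66 on the log2 scale each, whereas Ncapd3 at 0.11 and Ncaph2 at 0.05 did not pass.

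Further genes of entry and G2/M transcription were higher in 9 of 21 cases, led by the CDK subunits Cks1b at 0.95 and Cks2 at 0.82 and by Gtse1 at 0.84. The share of all tested genes that were higher, to set beside this and the next lists, was 4.79%. In the other spindle genes 8 of 21 were higher, with Spag5 at 0.88, the centriole factor Stil at 0.80 and Ckap2 at 0.74. In the other kinetochore and checkpoint genes 6 of 22 were, with the scaffold Knl1 at 0.94, Cenpm at 0.66 and Ska3 at 0.66. The counts for spindle and kinetochore genes include Ckap2 and Cenpk, which passed the filter through the KO arrays. The list of APC/C subunits, cohesin and separation genes had 4 of 25 higher and a median of 0.14, with the cohesin protector Sgo2a at 0.84, sororin (Cdca5) at 0.54 and separase (Espl1) at 0.52.

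DNA synthesis genes, which act before mitosis, were higher in 11 of 24 tested cases, where 4.79% of all tested genes were, and lower in 0, where 3.5% were. Rrm2, the ribonucleotide reductase subunit that supplies nucleotides, read 346 and 311 in WT and 550.2 and 859 in KO (log2 fold change 1.07, limma adjusted p = 3.51e-08). Tk1, thymidine kinase, rose by 0.91 and Ccne2, cyclin E2, by 0.78. The list's median shift was 0.25 in KO replicate 1 and 0.72 in KO replicate 2, and the replicates were thus ordered as in the mitosis genes. Whether the difference between the KO arrays is larger in mitosis genes than in DNA synthesis genes was not tested.

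**Figure D4:**
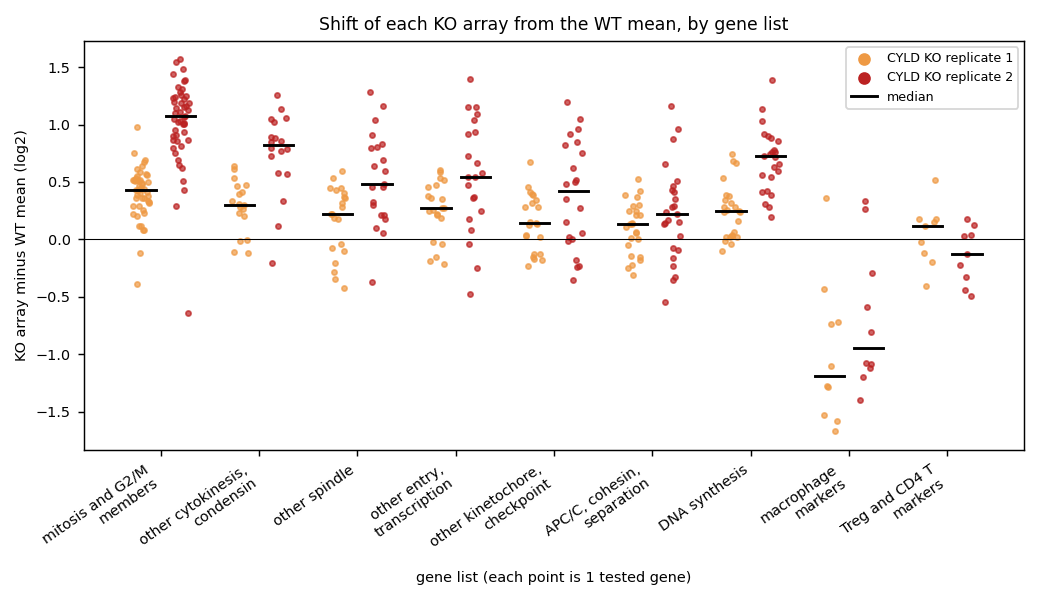
Shift of each KO array from the WT mean (log2) for every tested gene of the mitosis list, the 5 further mitosis lists, the DNA synthesis list and 2 marker lists, with bars at the medians. The median of the mitosis genes is 0.43 in KO replicate 1 and 1.07 in KO replicate 2, and that of the macrophage markers is below 0 on both.

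Genes listed as markers of other cells that a sort of spleen could hold were read beside these genes. None read 0, since the lowest value on any array was 26.6. Which cells made these transcripts cannot be told from bulk RNA. Beside the marker counts that follow, 3.5% of all tested genes were lower and 4.79% higher. Of 10 macrophage and monocyte markers 8 were lower and 0 higher, and their summed intensity was 2350.0 and 2177 on the WT arrays and 1150.0 and 1367 on the KO arrays. Their median shift was -1.19 in KO replicate 1 and -0.94 in replicate 2, so that both medians lay below WT, replicate 2 less far. Among the lower genes, the KO means of Adgre1 (69.4), C1qa (74.4), C1qc (73.6) and Spic (60.3) were under the filter. These genes passed it through the WT arrays. Lyz2 overlapped between groups. Ccr2 read 208 and 189 in WT and 255 and 239 in KO, above WT on both KO arrays without passing. Of 5 tested CD8 T and NK cell markers 2 (Nkg7 and Eomes) were higher and 0 lower. The 8 measured markers of this list, tested or not, had sums of 1347, 1272, 2420.3 and 2738 on WT replicates 1 and 2 and KO replicates 1 and 2. Nkg7 alone read 495, 416, 1265 and 1614 in that order, and Cd8a read between 92.5 and 119.7. Cd8b1 lay above WT on both KO arrays without passing, and Cd8a, Klrb1c, Ncr1, Klrk1 and Klrd1 overlapped between groups. Of 5 tested germinal centre and plasma cell markers 1 (Prdm1) was higher and 0 lower, and the 8 measured ones had sums from 2100.2 to 2175 in WT and from 2489.7 to 2578 in KO. Prdm1 read 401 and 341 in WT and 692 and 624 in KO. Of the others tested, Irf4 and S1pr2 lay above WT on both KO arrays, Xbp1 lay below, and Jchain overlapped.

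Of 3 tested erythroid markers 1 (Gata1) was lower, where 3.5% of all tested genes were. The KO mean of Gata1, 73.3, was under the filter, so this gene passed it through the WT arrays. The sum over the 8 measured erythroid markers ran from 652 to 685 in WT and from 648 to 698 in KO. No gene passed among 4 B cell, 6 dendritic cell, 2 granulocyte and 1 platelet markers tested. The sum over the 7 measured B cell markers was 692 and 695 in WT and 689.9 and 642 in KO. The part of the macrophage, CD8 T and NK, and plasma cell markers in the values of the mitosis genes was not tested. The number of arrays, 2 per genotype, limits the precision of every value given here.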

How the data were processed

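RNA was labelled as biotinylated cRNA, per the labels' protocols, and hybridised to Affymetrix mouse gene arrays. The deposited values are linear intensities, 1 for each array and probe set. How the authors corrected, summarised and scaled these intensities: not given in the sources used here. Of 35557 probe sets, 21789 had 1 gene symbol in a platform annotation of 2016, 1621 had several and 12147 had none listed; 21698 matched a RefSeq table (GRCm38.p6) by Entrez number, with 0 symbols changed. Values were taken as log2(intensity + 1), so folds are on that scale, and genes under the 30th percentile of mean log2 intensity were left out.

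Groups were compared by lmFit and eBayes of limma 3.58.1 (R 4.3.3) on all 4 arrays, with Benjamini-Hochberg adjustment over 13956 genes and a threshold of 0.05; the procedure was tested on simulated data. Every adjusted p is from limma. Fits with 1 KO array compare that array with both WT arrays. The members, the gene and marker lists and the choice of genes to name were made with earlier results of these data known. That choice gives values on each array for the 3 members of each role with the largest change, those tested that did not pass, and the 3 with the largest and smallest differences between KO arrays, and up to 3 genes of each further list. Members sharing a family can share probes. Alternatives covered the filter, scaling, pseudocount, variance model, array weights, probe set choice, replicate number, threshold and each array left out.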

Additional observations from a re-analysis of the deposited data

How the results depend on the processing

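The count of higher members stayed within 1.5 times of 43 under every change of filter, scaling, pseudocount, array weights, probe set and threshold tried; of the variance models, only the fit with no pooling moved it, to 0. With 1 array left out it ran from 11 (without KO replicate 2) to 45 (without KO replicate 1), and the count of lower members from 0 to 1. That lower count, 1 in all, was 0 with no pooling, at an adjusted p under 0.01 and with at least 1.5-fold required. Among the further mitosis genes, 39 were higher, 0 with no pooling and 7 to 52 with 1 array left out, and 0 to 1 were lower. Members higher in KO replicate 1 alone, 11, were 7 with quantile normalization and 17 with a pseudocount of 16, alternatives chosen after seeing the data. Bub3 reversed to -0.12 without KO replicate 2, and was 0.43 without KO replicate 1. The causes were not tested, beyond the smaller number of arrays in the fits that leave 1 out.

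With the replicate number as a block, 42 members were higher, where 4.32% of all tested genes were, and 1 lower, where 3.07% were. In that fit 36 further mitosis genes were higher, and Cenpa had a limma adjusted p = 0.0590. Deviations of arrays with the same number correlated at -0.092 over all tested genes. This value cannot show whether such arrays were handled together, since a shared step may act on some genes only. The labels give no batch.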
